A study of Mus musculus with 16 samples.

Results

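The comparison examined what SB525334, given alone, did to the RNA of MC38 liver metastases. Its members are the 4 libraries whose titles name SB525334 and the 4 whose titles name the PBS control, which together make up 8 of the 16 samples of the series, and every listed gene was taken into the test. All 16 samples are total RNA from tumor tissue of liver metastases in wild-type C57BL/6 mice, labelled male and 6 weeks old, into whose hemispleen MC38 cells (a mouse colon adenocarcinoma line) had been injected in 40 μl PBS. The SB525334 group received 20 mg/kg by oral gavage every day, the control group received PBS, the KN046 group received 10 mg/kg of KN046, an antibody against PD-L1 and CTLA-4, and the combination group received both agents at these doses. The labels give no duration of treatment, and they do not state that each sample is a different animal, although each is called a mouse below.

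SB525334 is a small-molecule inhibitor of the kinase activity of the type I TGF-β receptor (TGF-βR1, also called ALK5). TGF-β ligands bring type II and type I receptors together on the cell surface, the type I receptor phosphorylates SMAD2 and SMAD3, and these enter the nucleus with SMAD4 to change transcription. In tumors that grow in the liver the pathway is known for turning fibroblasts and hepatic stellate cells into matrix-producing myofibroblasts and for restraining T cells. A piece of metastasis also carries hepatocytes, Kupffer cells and sinusoidal endothelium of the surrounding liver, so genes of liver cells are described apart from genes of tumor and stroma.

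Total counts ranged from 20042850 to 21802474 in the control libraries and from 21584449 to 23877131 in the SB525334 libraries. The labels call every mouse male, yet the Y-linked genes Ddx3y, Uty and Kdm5d had a count of 0 in all 16 libraries, and all 169 listed genes of chromosome Y together held 2 counts. Among liver genes that differ between the sexes, Hsd3b5 (male) was at 0 in all 16 libraries and Cyp2b9 (female) held 8.14 to 13 CPM (read counts scaled to library size) in the controls, whereas Mup20 (male) held 9.54 to 56.7 CPM in the controls. The Y-linked genes, Hsd3b5 and Cyp2b9 go against the label, whereas Mup20 and Slco1a1 (male, 1.25 to 3.98 CPM in the controls) go with it. Male Cyp4a12a, at 0 in the controls, also goes against it. So do the female genes Cyp2a4 (11.6 to 15.7 CPM in the controls), Cyp3a41a (2.19 to 5.54 CPM) and Sult2a1 (0.615 to 3.40 CPM). Female A1bg was near the detection limit, at 0 to 0.525 CPM in the controls. The controls resembled each other in couples. The median chi-square of the counts was 1.26 between control 1 and control 2 and 0.957 between control 3 and control 4, against 8.74 to 9.46 across the couples and 2.97 to 6.23 among the SB525334 libraries. Counting noise alone gives 0.455, so the libraries of a couple differed by more than counting noise, as 2 pieces of 1 mouse also could. Whether a couple came from 1 mouse cannot be told from the labels, and the p-values count the controls as 4. With each couple merged into 1 sample, 17 of the 85 genes followed across settings lost their call, and these are given where they are named. Of the colon epithelial markers, Cdx2 held 1 count and Krt20 4 counts in the 4 controls together and neither had any in SB525334, and Epcam was at 0.941 to 4.17 CPM in the controls and 0.633 to 1.16 CPM in SB525334.

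Among 13968 genes tested, 55 were higher and 1288 lower in SB525334 than in control at an adjusted p under 0.05 (edgeR quasi-likelihood test with Benjamini-Hochberg adjustment, used for every adjusted p below). Lower genes were thus 9.22% and higher genes 0.394% of all genes tested, and each list below is to be read against these shares. Over all genes tested, the log2 fold change had a median of 0.00059. Of the 1288 lower genes, 201 belonged to a list of liver cell genes, in which 226 genes were tested. Another 367 were in no liver list but followed liver tissue in other mice, which means that they were at least 8-fold lower in the combination than in the KN046 samples in a fit of those mice alone. Since the combination mice had also received SB525334, this class follows liver tissue or the added drug. A further 132 lower genes were too weakly expressed in those mice to be classed. The remaining 588 lower genes were 4.59% of 12803 genes tested outside the liver classes.

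The median log2 fold change of the lower genes was −3.57 in the liver lists, −3.50 among the other genes that followed liver tissue, −3.43 among the 132 that could not be classed and −1.33 among the remaining 588. All 55 higher genes lay outside the liver classes, with a median of 0.43, a largest value of 1.40 and 4 genes above 2-fold. With each control couple counted as 1 sample, 4 genes were higher and 1023 lower.

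**Figure D1:**
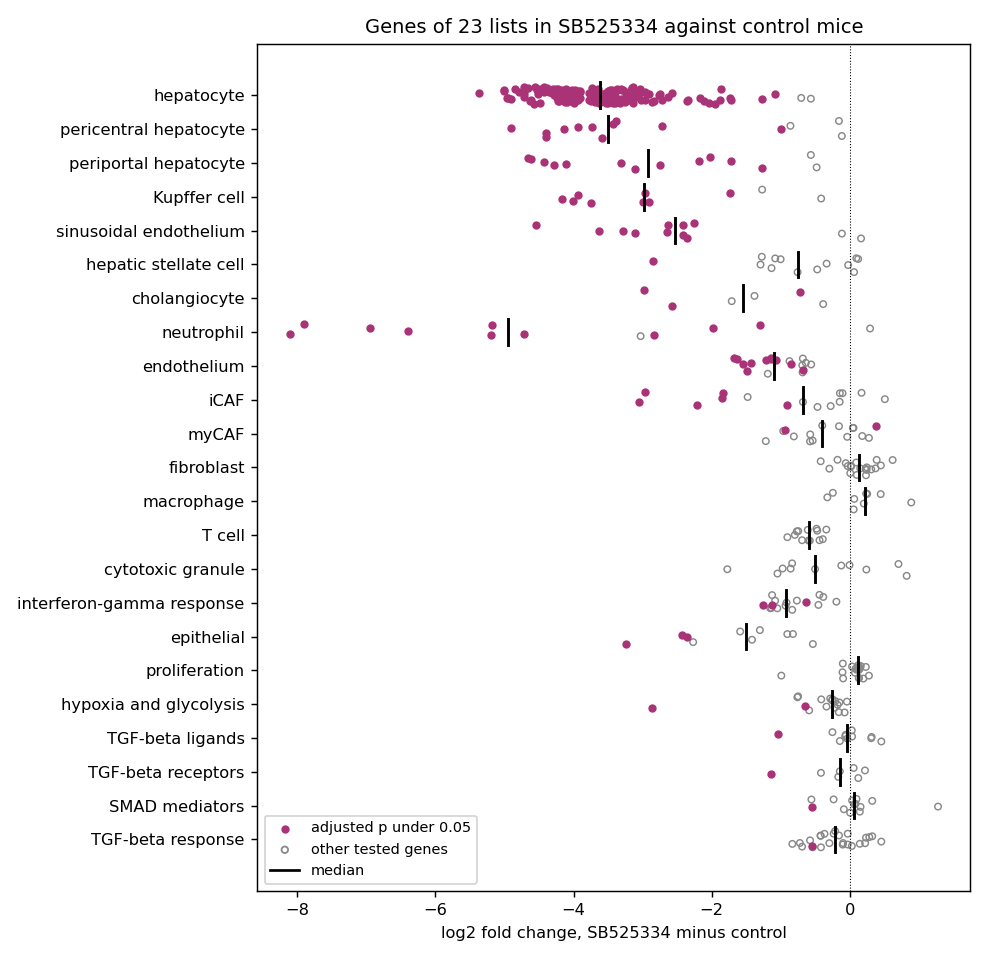
Log2 fold change of SB525334 against control (horizontal axis) for each tested gene of 23 gene lists, 1 line per list. Filled points passed an adjusted p of 0.05, open points did not, and the bar marks the median of the list. Hepatocyte, Kupffer cell, sinusoidal endothelium and neutrophil genes lie far to the left, with medians of −3.61, −2.98, −2.53 and −4.95, while fibroblast, macrophage and proliferation genes lie around 0.

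Hepatocyte RNA was lower throughout. Of 178 hepatocyte genes, 177 were listed and 173 tested, and 171 of them fell, with a median of −3.61 on the log2 scale, or 8.17% of the control level. Together the hepatocyte genes held 3.46 to 3.97% of all counts in the control mice and 0.159 to 0.498% in the SB525334 mice. In bulk tissue, fewer hepatocytes and less RNA per hepatocyte cannot be told apart. Albumin (Alb, ENSMUSG00000029368, chromosome 5, 90608647 to 90624696, GRCm39), the main plasma protein, was at 7843, 8102, 8383 and 8414 CPM in the 4 control mice. It was at 650, 874, 487 and 129 CPM in SB525334 mice 1 to 4, a change of −3.94 ± 0.40 (log2, SE, adjusted p = 2.22e-06). The groups did not overlap, and SB525334 mouse 4 was the lowest. Hnf4a, a nuclear receptor that maintains the hepatocyte programme, went from 77.8, 82.7, 80.7 and 78.7 CPM in the controls to 6.87, 8.32, 4.0 and 2.07 CPM in SB525334 mice (−3.91 ± 0.37, adjusted p = 1.29e-06). Here too the groups were far apart.

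The fall ran through every role of the hepatocyte. All 38 tested plasma proteins fell (median −3.47), as did all 9 apolipoproteins (−3.54), all 14 coagulation factors (−3.34) and all 10 complement components (−4.0). All 28 detoxification enzymes fell (−4.04), and so did all 11 transcription factors of the list (−3.57), 13 of 13 genes of glucose and lipid metabolism (−3.96) and 10 of 10 genes of hormones and iron (−3.30). Bile acid and transport genes had the lowest median of these roles, −4.39, with 11 of 12 lower. In amino acid and urea metabolism 27 of 28 genes fell (−3.60). The exceptions were Cyp7b1, an oxysterol hydroxylase of bile acid synthesis, at −0.70 ± 0.30 (adjusted p = 0.185), and Arg1, the arginase of the urea cycle, which myeloid cells also make, at −0.56 ± 0.36 (adjusted p = 0.452). Arg1 was at 169 to 189 CPM in the controls and at 80.1, 44.6, 130 and 223 CPM in SB525334 mice, so the groups overlapped.

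The 8 largest falls of the hepatocyte list were Akr1d1, Slco1a1, Abcb11, Cyp2c54, Ces3b, Cyp7a1, Ces3a and Bhmt, from −5.37 to −4.80. Akr1d1, the steroid reductase of bile acid synthesis (ENSMUSG00000038641, chromosome 6, 37506822 to 37545751, GRCm39), was at 10.4, 10.3, 13.3 and 14.3 CPM in control mice. In SB525334 mice it was at 0.316, 0.597, 0.129 and 0.0862 CPM (−5.37 ± 0.42, adjusted p = 3.83e-07). Abcb11, the bile salt export pump, fell by 5.0 ± 0.61 on the log2 scale (adjusted p = 1.25e-05), and Cyp7a1, the rate-limiting enzyme of bile acid synthesis, fell by 4.90 ± 0.74 (adjusted p = 0.000116). Abcb11 and Cyp7a1 differed between the control couples, Abcb11 at 50.0 and 47.9 against 26.4 and 27.9 CPM and Cyp7a1 at 6.69 and 6.39 against 17.3 and 13.6 CPM, but every control lay above every SB525334 mouse.

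Both zones of the liver lobule were affected. Of 14 tested genes of hepatocytes near the central vein, 11 fell (median −3.51), and of 14 tested genes of hepatocytes near the portal tract, 12 fell (−2.93). Cyp2e1, a pericentral cytochrome P450, was at 327, 335, 488 and 496 CPM in controls and at 32.8, 54.7, 17.3 and 2.5 CPM in SB525334 mice (−3.94 ± 0.61, adjusted p = 0.000145). Cyp2f2, a periportal one, was at 16.6, 16.9, 20.4 and 21.2 CPM against 0.407, 2.23, 0.344 and 0 CPM (−4.62 ± 0.70, adjusted p = 0.000122). Glul, the pericentral glutamine synthetase, which many other cells express, fell by 1.0 ± 0.15 (adjusted p = 0.000106). Pericentral Oat, Tbx3 and Axin2 and periportal Asl and Arg1 did not pass the test.

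The other groups show where the SB525334 mice stood. Alb was at 5742, 8551, 11060 and 8016 CPM in the KN046 mice and at 9.35, 10.1, 11.6 and 7.07 CPM in the combination mice, so the SB525334 mice lay between the controls and the combination. The difference between the effect of SB525334 with KN046 (combination against KN046) and without it (SB525334 against control) was tested as an interaction in the 16-mouse fit, which called 4.28% of all genes. For Alb it was −5.84 ± 0.55 on the log2 scale (adjusted p = 6.01e-06), a larger fall where KN046 was given. Among the 173 hepatocyte genes, 113 had an interaction call, all 113 of them below 0.

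Promoters of the genes with large falls are shown because they carry letters known from liver and myeloid transcription factor sites. The 250 bases before the start site, 5′ to 3′ on the strand of the gene, are from RefSeq on GRCm38.p6, at chr5:90460620-90460869 for Alb and chr6:37529923-37530172 for Akr1d1, both on the plus strand. Capitals mark GTTAAT, found in HNF1 sites, and TTGCNNAA, found in C/EBP sites, on either strand.
Alb: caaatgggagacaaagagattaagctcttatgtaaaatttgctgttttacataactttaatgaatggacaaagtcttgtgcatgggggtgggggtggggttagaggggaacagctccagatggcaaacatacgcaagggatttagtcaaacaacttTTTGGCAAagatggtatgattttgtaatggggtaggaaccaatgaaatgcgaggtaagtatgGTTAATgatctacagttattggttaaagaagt
Akr1d1: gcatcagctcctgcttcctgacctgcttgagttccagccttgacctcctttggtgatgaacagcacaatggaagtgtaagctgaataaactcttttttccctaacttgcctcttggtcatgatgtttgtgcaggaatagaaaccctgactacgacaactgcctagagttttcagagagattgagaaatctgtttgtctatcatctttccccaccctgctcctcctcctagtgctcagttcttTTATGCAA
In Alb, GTTAAT began 32 bases and TTGCNNAA 94 bases before the start, and in Akr1d1, TTGCNNAA began 8 bases before it. Of the 171 hepatocyte genes that fell, 132 had a promoter in the table, and 20.5% of these held GTTAAT, against 6.58% of all 27025 promoters. The corresponding shares were 25.8% against 9.53% for TTGCNNAA, 7.58% against 1.22% for CAAAGTNCA (letters found in HNF4 sites) and 25% against 12.9% for TATAAA. Other spellings were searched too. The letters CAGACA, found in SMAD sites, were in 12.9% of these promoters, in 21.4% of those of the TGF-β response list and in 17.1% of all. The SMAD palindrome GTCTAGAC and the C/EBP palindrome TTGCGCAA were each in 1 of the 132, and the full HNF1 palindrome was in none of them and in 3 of all promoters. These are matches of letters, and binding was not measured. Since 171 of the 173 tested hepatocyte genes fell, the shares describe the list and not the fall. The spellings were chosen after counts of matches had been seen.

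**Figure D2:**
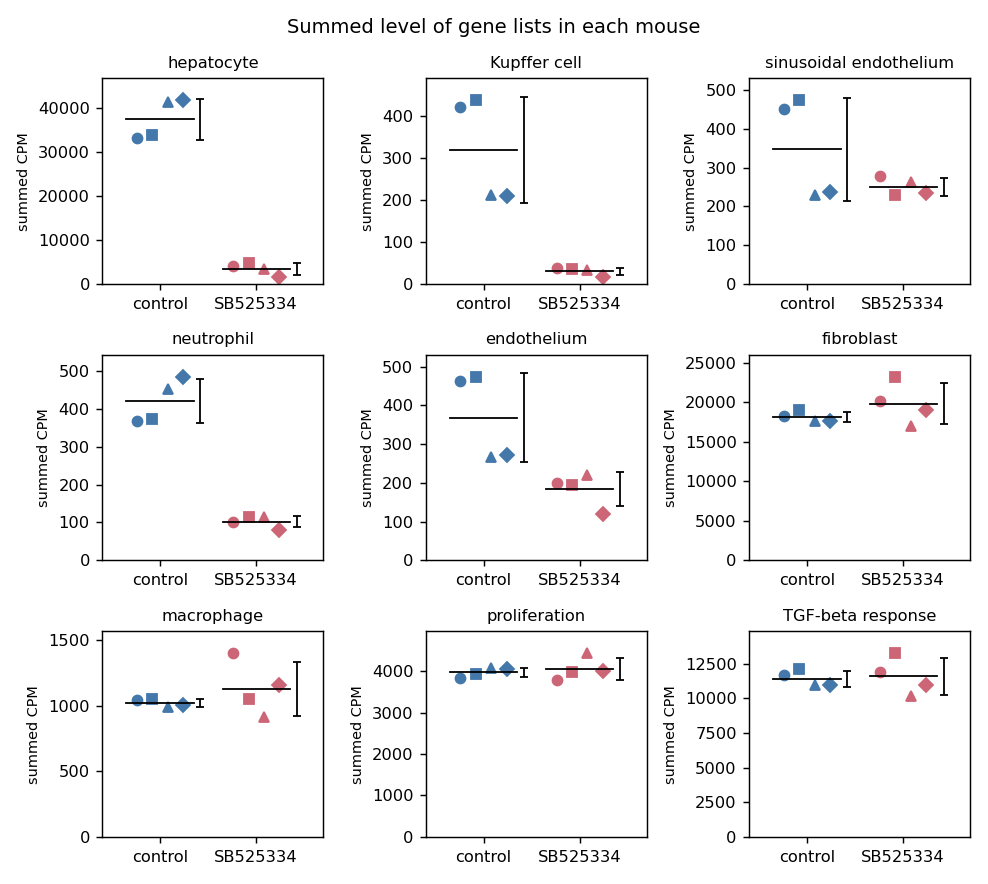
Summed CPM per mouse of 9 gene lists in control and SB525334 mice (vertical axes start at 0). The marker shape stands for the replicate number, the line for the group mean and the error bar for the SD of 4 mice. Hepatocyte sums lie at 33001 to 41598 CPM in controls and 1586 to 4730 CPM in SB525334, while proliferation sums lie at 3832 to 4065 and 3790 to 4430 CPM.

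The resident non-parenchymal cells of the liver followed the hepatocytes in part. Of 10 Kupffer cell genes, 8 fell, with a median of −2.98. Clec4f, a lectin restricted to Kupffer cells, was at 94.7, 100, 35.8 and 38.3 CPM in controls and at 6.15, 7.17, 3.23 and 0.991 CPM in SB525334 mice (−3.94 ± 0.64, adjusted p = 0.000232). The scavenger receptor Marco fell by 4.0 ± 0.55 (adjusted p = 3.97e-05) and the apoptotic cell receptor Timd4 by 4.17 ± 0.77 (adjusted p = 0.000918). Folr2 and Cd207 did not pass the test. The summed Kupffer cell level was 421 and 436 CPM in controls 1 and 2, 211 and 209 CPM in controls 3 and 4 and 17.1 to 36.8 CPM in SB525334.

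Of 12 tested genes of sinusoidal endothelium, 10 fell, with a median of −2.53. Stab2, a scavenger receptor of these cells, was at 44.6, 45.2, 12 and 12.8 CPM in controls and at 3.12, 3.46, 3.57 and 1.55 CPM in SB525334 mice (−3.29 ± 0.43, adjusted p = 2.46e-05). All controls were above all SB525334 mice, but the control couples differed, and 6 of these genes passed when controls 3 and 4 stood for the group. The lectin Clec4g fell by 3.63 ± 0.65 (adjusted p = 0.00064). Wnt9b, a Wnt ligand of the central vein, held 53 counts in the controls and 2 in SB525334, a ratio of 29.6 (exact 95% Poisson interval 8.20 to 245, covering counting error only). Stab1 and Fcgr2b, which macrophages also express, did not pass (0.16 ± 0.24 and −0.12 ± 0.15). The list, with these genes included, summed to 452 and 473 CPM in controls 1 and 2. Controls 3 and 4 were at 229 and 236 CPM and the SB525334 mice at 228 to 278 CPM, so these overlapped.

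Hepatic stellate cell genes had few calls, and their number depended on the fit. Of 13 tested, 1 fell, the collectin Colec10 (−2.84 ± 0.56, adjusted p = 0.00165), and the median was −0.76. The count was 4 with the 8 mice alone, 3 with DESeq2 and 6 with the study's thresholds (unadjusted p and 2-fold). Lrat, which esterifies vitamin A in quiescent stellate cells, was at 2.19, 1.99, 2.28 and 2.93 CPM in controls and at 0.588, 1.95, 0.430 and 0.818 CPM in SB525334 mice (−1.29 ± 0.47, adjusted p = 0.113). Its groups did not overlap, but the adjusted p missed the threshold. In the cholangiocyte list 3 of 6 genes fell, among them Pkhd1, the fibrocystin gene (−2.98 ± 0.49), and Bicc1 (−0.73 ± 0.22), whose adjusted p rose above 0.05 in 13 of 21 alternative settings (0.186 with couples merged).

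Outside the liver classes, the deepest falls were in genes of granulocytes and their precursors. Neutrophils make their granule proteins in stages in the marrow, from the azurophil proteases of promyelocytes to lactoferrin and cathelicidin of later cells. Of 12 neutrophil genes, 10 fell, with a fitted median of −4.95, or −4.62 with Ly6g set to its bound. Ngp (ENSMUSG00000032484, chromosome 9, 110248815 to 110252086, GRCm39), a neutrophil granule protein, was at 58.2, 63.0, 52.8 and 55.9 CPM in control mice. It was at 0.181, 0.279, 0.215 and 0.129 CPM in SB525334 mice (−8.11 ± 1.43, adjusted p = 0.000558). Ltf, lactoferrin (ENSMUSG00000032496, chromosome 9, 110848339 to 110871835), was at 33.6, 34.3, 29.7 and 31.1 CPM against 0.0904, 0.119, 0.215 and 0.0862 CPM (−7.91 ± 1.21, adjusted p = 0.000132). In both genes the 4 controls were close together and every SB525334 mouse was under 1 CPM. Camp, the cathelicidin, fell by 6.39 ± 1.24 (adjusted p = 0.00143). Ly6g (ENSMUSG00000022582, chromosome 15, 75027089 to 75030982), the surface marker of mouse neutrophils, was at 0.919, 0.663, 0.761 and 0.627 CPM in controls and had no count in the 4 SB525334 libraries, at least 23.2-fold lower against a floor of 3 counts over the group.

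The calprotectin genes fell too, with more spread. S100a8 was at 23.7, 23.2, 30.3 and 34.1 CPM in controls and at 0.0904, 0, 2.58 and 0.388 CPM in SB525334 mice (−5.18 ± 1.19, adjusted p = 0.00624). S100a9 fell by 4.71 ± 1.16 (adjusted p = 0.0108). Smaller falls were those of the G-CSF receptor Csf3r, at −1.30 ± 0.30, and the collagenase Mmp8, at −1.98 ± 0.42. Lcn2, which hepatocytes also make, was at −2.84 ± 0.74 and was in the class that follows liver tissue or the added drug. Mmp9 (0.29 ± 0.25, adjusted p = 0.619) and the chemokine receptor Cxcr2 (−3.03 ± 1.0, adjusted p = 0.0719) did not pass.

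Among the 10 largest falls outside the liver classes, 4 more were granulocyte genes. Elane, neutrophil elastase, held 722 counts in the controls and 3 in SB525334, a ratio of 271 (95% interval 92.8 to 1315). Fcnb, ficolin B, held 116 against 1 (ratio 130, interval 23.4 to 5146), and Itgb2l, a β2-like integrin chain, 175 against 1 (ratio 198, interval 35.5 to 7821). Ms4a3, a marker of granulocyte and monocyte progenitors, had 144 counts against 0, at least 53.8-fold lower. These ratios are scaled for library size. Genes of the same stage looked at after their values were seen also fell, with Mpo at −5.76, Ctsg at −5.84, Prtn3 at −5.04 and the neutrophil antigen Cd177 at −4.72. Of the rest of the 10, Cxcl13, the B cell chemokine, was at 5.73 to 6.58 CPM in controls and at most at 0.0452 CPM in SB525334 mice (517 counts against 3, ratio 196, interval 66.9 to 948). Sult2a1 and Mup22 are made by hepatocytes and were missed by the liver classes.

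Granulocyte promoters are shown beside these values, as for the hepatocyte genes, with TTGCNNAA in capitals. They lie on the plus strand at chr9:110419558-110419807 for Ngp, chr9:111019042-111019291 for Ltf and chr15:75155011-75155260 for Ly6g (GRCm38.p6).
Ngp: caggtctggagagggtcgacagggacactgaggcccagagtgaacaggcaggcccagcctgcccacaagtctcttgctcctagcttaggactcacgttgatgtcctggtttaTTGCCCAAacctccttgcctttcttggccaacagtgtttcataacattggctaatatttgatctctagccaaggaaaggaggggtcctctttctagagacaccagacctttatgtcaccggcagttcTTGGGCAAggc
Ltf: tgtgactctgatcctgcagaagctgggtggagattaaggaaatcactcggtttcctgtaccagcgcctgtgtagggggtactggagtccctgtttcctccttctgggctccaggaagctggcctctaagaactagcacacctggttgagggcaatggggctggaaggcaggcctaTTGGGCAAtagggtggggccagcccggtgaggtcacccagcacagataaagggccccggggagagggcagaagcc
Ly6g: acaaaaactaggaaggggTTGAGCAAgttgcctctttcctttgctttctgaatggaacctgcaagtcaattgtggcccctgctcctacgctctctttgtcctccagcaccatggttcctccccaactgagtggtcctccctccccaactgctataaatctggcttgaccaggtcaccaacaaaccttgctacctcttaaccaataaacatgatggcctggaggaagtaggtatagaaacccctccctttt
The match began 138 and 11 bases before the start of Ngp, 75 before that of Ltf and 232 before that of Ly6g. Of the 10 neutrophil genes that fell, 70.0% held TTGCNNAA, against 9.53% of all promoters and none of the 14 TGF-β response genes with a promoter. The genes were Lcn2, Ltf, Ly6g, Mmp8, Ngp, Retnlg and S100a9, whereas Camp, S100a8 and Csf3r did not hold it. The C/EBP palindrome TTGCGCAA was in 0 of the 10. Since 10 of the 12 listed neutrophil genes fell, the share describes the list and not the fall.

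**Figure D3:**
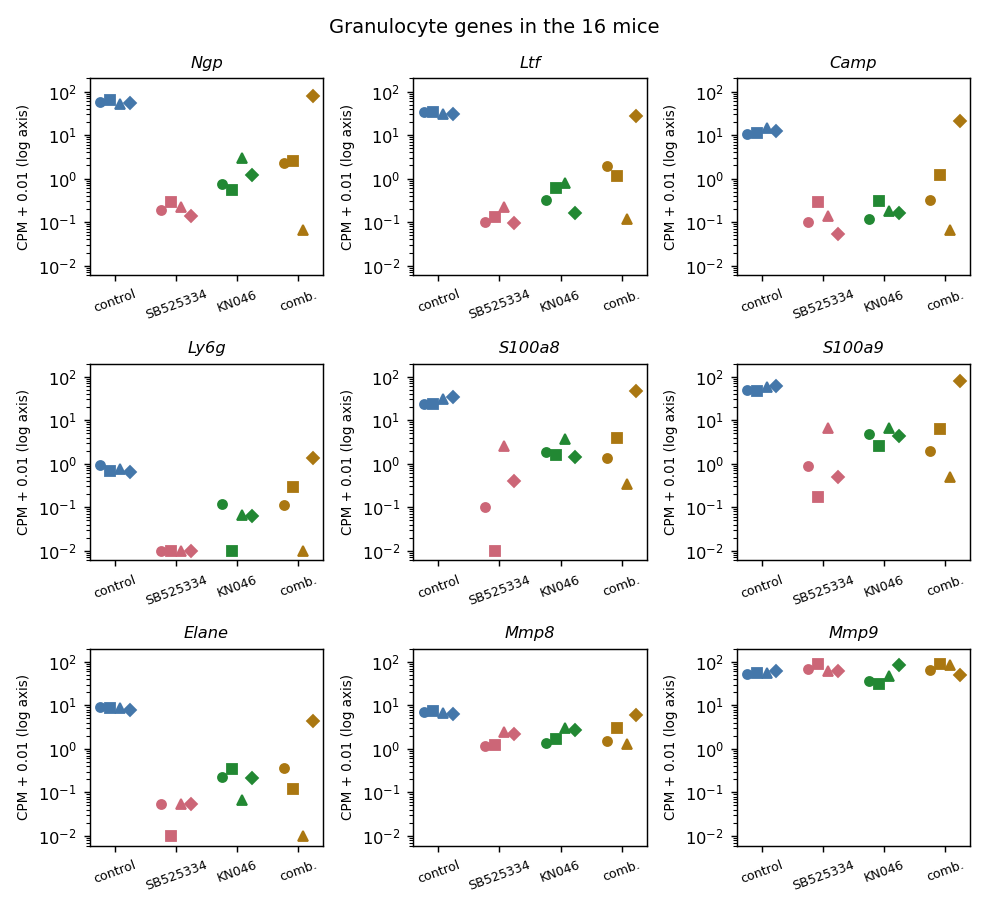
CPM of 9 granulocyte genes in each of the 16 mice, by group, on a log axis with 0.01 added to each value. For Ngp the 4 controls lie between 52.8 and 63.0 CPM and the 4 SB525334 mice at or under 0.279 CPM, and combination mouse 4 lies near the controls at 78.2 CPM, whereas Mmp9 overlaps between all groups.

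The KN046 mice, whose comparison uses the same controls, also had low granulocyte levels. Ngp was at 0.746, 0.535, 2.96 and 1.20 CPM in them (−5.42 against control, adjusted p = 0.024) and Ltf at 0.320, 0.583, 0.782 and 0.156 CPM (−6.11, adjusted p = 0.014). In the combination, Ngp was at 2.31, 2.48, 0.0546 and 78.2 CPM and Ltf at 1.90, 1.16, 0.109 and 27.5 CPM, so mouse 4 alone was near the controls. The interaction was 12.06 ± 1.83 for Ngp (adjusted p = 0.000733) and 11.97 ± 1.59 for Ltf (adjusted p = 0.000208). Without combination mouse 4 the estimates were 8.38 and 9.11, both still past the threshold. Each drug alone already left both genes at so few counts that a further fall of the same size could not have been counted. A value above 0 was therefore near certain in advance for Ngp and Ltf, and nothing is concluded from its sign or size. Of 12 neutrophil genes 8 had an interaction call, all above 0. SB525334 alone left several of the 12 at few counts, so nothing is concluded from that sign either. The summed neutrophil level was 368 to 483 CPM in controls and 81.5 to 115 CPM in SB525334. The summed level of erythroid genes was 81.7 to 157 CPM in controls and 4.65 to 49.3 CPM in SB525334, and the hepatocyte share was lower in the same mice. The part of blood and of liver tissue in the granulocyte falls was not tested.

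Blood vessel genes fell less and depended on the controls used. Of 18 general endothelial genes 11 fell, with a median of −1.11. Kdr, the main VEGF receptor, was at 42.9, 43.8, 11.2 and 12 CPM in controls and at 9.22, 9.67, 12 and 3.40 CPM in SB525334 mice (−1.68 ± 0.41, adjusted p = 0.00937). Controls 3 and 4 overlapped the SB525334 mice for Kdr, and with these controls alone its value was −0.44 (adjusted p = 0.632). Angpt2, an angiopoietin of vessel remodelling, was at 16.2, 13.2, 10.1 and 11.7 CPM against 5.02, 4.5, 4.86 and 3.19 CPM (−1.54 ± 0.26, adjusted p = 0.000302) with no overlap. Pecam1, the junction protein CD31, fell by 1.07 ± 0.27 (adjusted p = 0.0145), and Tek, the angiopoietin receptor, by 1.64 ± 0.43 (adjusted p = 0.0159), a call lost in 6 of 21 settings. The count of 11 became 7 with each control couple as 1 sample and 1 with controls 3 and 4 alone. The sums of the list were 462 and 473 CPM in controls 1 and 2, 267 and 271 CPM in controls 3 and 4 and 120 to 220 CPM in SB525334. Sinusoidal endothelium fell in the same mice, and its part in these values was not tested.

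General fibroblast genes showed no call. None of 20 genes passed (median 0.12), and Col1a1, a fibrillar collagen chain, was at 1186 to 1494 CPM in controls and at 795, 2273, 1047 and 1013 CPM in SB525334 mice (−0.03 ± 0.32, adjusted p = 0.976). Fap, the fibroblast activation protein, was at 0.787, 1.33, 0.456 and 0.888 CPM against 1.45, 2.15, 0.732 and 0.991 CPM (0.62 ± 0.45, adjusted p = 0.537), and the groups overlapped. Pdgfra was at 0.37 ± 0.14 (adjusted p = 0.141) and Postn, periostin, at −0.16 ± 0.25 (adjusted p = 0.822). Of 15 tested genes of inflammatory fibroblasts (iCAF) 6 fell, among them the complement genes C3 (−3.05 ± 0.30) and C4b (−2.97 ± 0.33) and the chemokine Cxcl12. C3 was at 1906, 2010, 2075 and 2065 CPM in controls and at 311, 236, 208 and 221 CPM in SB525334 mice (adjusted p = 1.41e-06). Hepatocytes make both complement proteins. C3 and Efemp1 were in the class that follows liver tissue or the added drug. Cxcl12 was not in it. Its level was 43.8, 44.0, 56.7 and 51.9 CPM against 13.6, 13.7, 9.38 and 18.4 CPM (−1.83 ± 0.20, adjusted p = 4.27e-06). General and sinusoidal endothelial genes fell in the same mice, and their part in the Cxcl12 value was not tested. Il6 was near the detection limit, at 0.101 to 0.481 CPM against 0 to 0.301 CPM (adjusted p = 0.474). Of 15 tested genes of contractile fibroblasts (myCAF) 1 fell, Sparcl1 (−0.94 ± 0.28), and 1 rose, the matrix protease Mmp11 (0.38 ± 0.11, adjusted p = 0.0301). Sparcl1 lost its call in 12 of 21 settings and Mmp11 in 8, with adjusted p up to 0.174 and 0.409, and with couples merged none of the myCAF genes passed. Acta2, smooth muscle actin, was at −0.54 ± 0.29 (adjusted p = 0.347).

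The pathway that the drug targets showed few calls. Among 11 tested ligands and ligand-handling genes, 1 fell, Lrrc32, which presents latent TGF-β on the cell surface. It was at 23.2, 23.7, 20.3 and 21.9 CPM in controls and at 11.9, 7.29, 10.2 and 13.8 CPM in SB525334 mice (−1.05 ± 0.20, adjusted p = 0.00129), with no overlap. Tgfb1 itself was at 135, 130, 122 and 118 CPM against 126, 125, 126 and 136 CPM (0.03 ± 0.09, adjusted p = 0.914). Of 7 receptors 1 fell, the endothelial co-receptor Eng (−1.14 ± 0.22, adjusted p = 0.00144). With controls 3 and 4 alone its adjusted p was 0.0603. General endothelial genes fell in the same mice, and their part in the Lrrc32 and Eng values was not tested. Tgfbr1, which encodes the target of SB525334, was at 87.6, 85.3, 70.5 and 64.4 CPM in controls and at 88.2, 70.0, 74.9 and 86.6 CPM in SB525334 mice (0.05 ± 0.15, adjusted p = 0.902). The groups overlapped for Tgfb1 and Tgfbr1, whose signs changed with the samples used.

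Of 13 SMAD mediators and of 25 tested TGF-β response genes, 1 fell, the inhibitory SMAD Smad7, which is in both lists and is itself a target of the pathway. It was at 54.5, 55.3, 57.5 and 53.7 CPM in controls and at 33.9, 33.3, 44.0 and 40.1 CPM in SB525334 mice (−0.55 ± 0.15, adjusted p = 0.0295). Every SB525334 mouse was below every control, but the adjusted p rose above 0.05 in 11 of 21 alternative settings, up to 0.153. Among these was the setting with couples merged. The median of the response genes was −0.21. Tgfbi, a secreted matrix protein, was at 496 to 517 CPM in controls and at 565 to 685 CPM in SB525334 (0.28 ± 0.13, adjusted p = 0.236), and Ccn2, a matricellular protein, at 16.9 to 19.1 CPM against 8.14 to 13.5 CPM (−0.58 ± 0.31, adjusted p = 0.355). The groups did not overlap for Tgfbi or Ccn2, although neither passed the test. Pmepa1, a feedback inhibitor, was at 0.14 ± 0.24 (adjusted p = 0.827). Tagln, a contractile protein, held 6 counts in the controls and 3 in SB525334 and was not tested.

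**Figure D4:**
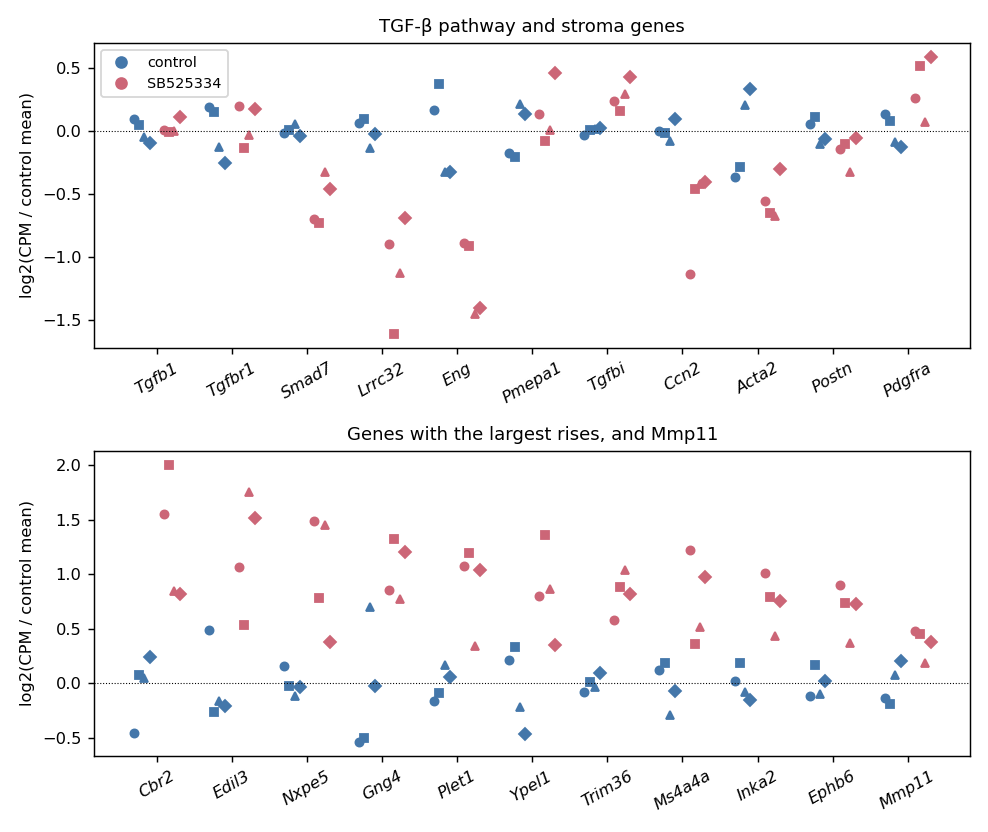
Log2 of CPM divided by the control mean for each of the 8 mice, for 11 genes of the TGF-β pathway and of fibroblasts (top) and 11 genes that rose (bottom). Smad7, Lrrc32 and Eng lie below 0 in all 4 SB525334 mice, Tgfb1 and Tgfbr1 scatter around 0, and Cbr2 lies above all controls.

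T cell genes showed no call against control. None of 13 T cell genes passed (median −0.60), nor did any of 11 cytotoxic granule genes. Cd8a, the CD8 co-receptor, was at 10.7, 10.2, 11 and 9.72 CPM in controls and at 9.36, 6.73, 5.81 and 7.93 CPM in SB525334 mice (−0.48 ± 0.28, adjusted p = 0.4). Gzmb, granzyme B, was at 9.75 to 11.1 CPM against 1.91 to 8.27 CPM (−0.97 ± 0.45, adjusted p = 0.242). All SB525334 mice were below all controls in both genes. In the combination, Gzmb was at 16.8, 6.68, 12.8 and 28.8 CPM and in KN046 at 3.62, 3.60, 0.894 and 1.66 CPM. The interaction was 3.70 ± 0.65 for Gzmb (adjusted p = 0.00251) and 1.95 ± 0.41 for Cd8a (adjusted p = 0.00916), and 11 of the 13 T cell genes had an interaction call, all above 0.

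Of 16 interferon-γ response genes, 3 fell against control, with a median of −0.92, against −1.77 in KN046 and 0.14 in the combination, which share the controls. Cd274, which encodes PD-L1, was at 16.3, 17.7, 9.43 and 10.7 CPM in controls and at 5.83, 4.14, 5.98 and 6.68 CPM in SB525334 mice (−1.26 ± 0.29, adjusted p = 0.00681). The T cell chemokine Cxcl10 was at 41.9 to 46.7 CPM against 14.8 to 24.8 CPM (−1.13 ± 0.29, adjusted p = 0.0132), and the immunoproteasome subunit Psmb9 at −0.64 ± 0.19 (adjusted p = 0.0439). Psmb9 lost its call in 13 of 21 settings and Cxcl10 in 3, with 0.192 and 0.0757 when couples were merged. With controls 3 and 4 alone none of the 16 passed, and with each control couple as 1 sample 1 did. All 16 genes had an interaction call above 0, the change with SB525334 being higher where KN046 was given.

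Other immune lists had few calls. None of 10 macrophage genes (median 0.22), 7 B cell genes (−1.63) or 8 dendritic cell genes (−0.34) passed. The NK cell receptor Klrd1 fell (−1.35 ± 0.36, adjusted p = 0.0196), as 1 of 4 NK cell genes, and Alas2, the erythroid enzyme of heme synthesis, fell as 1 of 6 erythroid genes (−2.70 ± 0.82, adjusted p = 0.0462). Klrd1 lost its call in 7 of 21 settings (0.0791 with couples merged) and Alas2 in 14 (0.148 with couples merged, up to 0.280). The erythroid count was 0 with couples merged and in 7 of 8 fits without 1 mouse, 4 without SB525334 mouse 3 and 5 with the 8 mice alone.

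Lists of tumor cell processes had few calls. None of 20 proliferation genes passed (median 0.12). Mki67, a marker of cycling cells, was at 524, 547, 210 and 192 CPM in controls and at 157, 255, 154 and 174 CPM in SB525334 mice (−0.99 ± 0.39, adjusted p = 0.152), so the control couples differed more than the groups did. Of 10 tested epithelial genes 3 fell, Krt8 (−2.36 ± 0.36), Krt18 (−2.43 ± 0.31) and the tight junction gene Cldn3 (−3.23 ± 0.45). The keratins are also those of hepatocytes. All 3 genes were in the class that follows liver tissue or the added drug, with Krt8 at 0 to 0.883 CPM in the combination. The epithelial count was 6 with DESeq2 and 7 with the study's thresholds. Of 17 genes of hypoxia and glycolysis 2 fell, the vasodilator peptide Adm (−2.86 ± 0.58, adjusted p = 0.00198) and Vegfa (−0.65 ± 0.18, adjusted p = 0.0234). Vegfa lost its call in 7 of 21 settings, with 0.122 when couples were merged. In the integrated stress response 1 of 12 fell, Fgf21 (−3.15 ± 0.79), a hormone that hepatocytes secrete. None of 6 mesothelial and none of 5 splenic mesenchymal genes passed.

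The rises were few and small, and most of them depended on the samples used. Cbr2, a carbonyl reductase, had the largest, from 3.32, 4.83, 4.72 and 5.38 CPM in controls to 13.4, 18.3, 8.22 and 8.06 CPM in SB525334 mice (1.40 ± 0.30, adjusted p = 0.00355). All SB525334 mice were above all controls, and the call was lost in 1 of 21 settings (0.0698). Edil3, an integrin-binding matrix protein, was at 0.757 to 1.27 CPM in controls and 1.31 to 3.06 CPM in SB525334 (1.28 ± 0.35, adjusted p = 0.0233), and lost its call in 8 settings. Nxpe5 (1.09 ± 0.33) and the G protein subunit Gng4 (1.06 ± 0.30) followed, and these 4 were the genes over 2-fold. Nxpe5 lost its call in 11 settings and Gng4 in 8. Ephb6, a kinase-inactive Eph receptor, had a smaller rise with the lowest adjusted p of the 10, from 14.6, 17.8, 14.8 and 16 CPM to 29.4, 26.3, 20.5 and 26.1 CPM (0.69 ± 0.12, adjusted p = 0.000443). The other named rises were Plet1 (0.95), Ypel1 (0.88), the ubiquitin ligase Trim36 (0.84), the macrophage membrane protein Ms4a4a (0.81) and Inka2 (0.76), which lost their calls in 6 (Trim36) to 11 (Ypel1) of the 21 settings. With each control couple as 1 sample, 8 of the 10 missed the threshold, with adjusted p from 0.119 (Trim36) to 0.237 (Nxpe5) and 0.126 for Edil3, and Cbr2 and Ephb6 passed. In the combination mice Ephb6 was at 22.7 to 25.9 CPM and Cbr2 at 6.36 to 10.5 CPM, and none of the 10 had an interaction call.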

How the data were processed

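RNA-seq counts were analysed for the 4 SB525334 and 4 control mice, with the 8 KN046 and combination mice in the same fit. Per the study's methods and processing notes, the authors used cutadapt 2.7 for trimming, HISAT2 2.2.1 for alignment (GRCm39) and HTSeq 2.0.4 for gene counts. The deposited raw counts per gene (21959 genes, of which 21770 were named in GENCODE M39) were used, and the normalized values that the authors also deposited were not. Strand, overlap and multi-mapping settings are not given in the sources used here, so genes with near-identical copies (the Serpina1, Mup and Cyp2c families) and overlapping genes are uncertain.

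Genes passing filterByExpr (minimum count 10) were scaled by TMM and tested with edgeR 4.0.16 in R 4.3.3 by the quasi-likelihood test, 1 fit over 4 groups in 16 mice with no covariate, and p-values were adjusted by Benjamini-Hochberg over all 13968 genes with a threshold of 0.05. The biological coefficient of variation was 20.1%. Printed CPM are scaled by TMM, and ± is the SE of a log2 fold change. The procedure was tested on simulated data with independent libraries, the same spread for all genes and equal numbers of rises and falls. The simulation held neither control couples nor a change that runs mostly downward, so it did not test the p-values under these conditions. DESeq2 1.42.0, which the authors used in version 1.38.3, was an alternative, beside other scalings, filters, sample choices and the study's thresholds.

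Members, lists and tests were chosen with earlier results of these data known, and motif spellings after counts of matches had been seen. The genes named were the 10 largest rises, the 8 largest hepatocyte falls and the 10 largest falls outside the liver classes among called genes with no overlap and at least 1 CPM in the higher group, up to 3 called members of each list, and a set of pathway and marker genes whatever their values; other genes are named to fill in a list or its exceptions. The 32 lists hold 540 symbols. Of the list symbols, Ahsp, G6pc, Ighm and Trac were not matched. Correlations of the deviations of same-numbered control and SB525334 mice were −0.124, 0.140, 0.147 and −0.0912, so numbers were not taken as pairs. The p-values measure the spread between samples that the labels do not describe as separate animals. Totals of 20042850 to 23877131 counts per library limit precision for genes under 1 CPM. Some members of the lists are not reported here.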

Additional observations from a re-analysis of the deposited data

Results flagged for a closer look

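In 13 of 170 groups of 4 mice, 1 mouse stood apart from the others by a gap that chance gives in about 1 in 20 groups, or 8.5 here. These were Edil3 in control 1 (1.27 CPM), and in SB525334 mice Elane in mouse 2 (0 CPM), Cxcl13 in mouse 4 (0 CPM), Itgb2l in mouse 3 (0.0430 CPM), Sult2a1 in mouse 2 (0.0398 CPM), Fcnb in mouse 3 (0.0430 CPM), Tgfb1 in mouse 4 (136 CPM), Ccn2 in mouse 1 (8.14 CPM), Il6 in mouse 3 (0.301 CPM), G6pc1 in mouse 2 (2.99 CPM), Wnt9b in mouse 3 (0.0861 CPM), Clec4g in mouse 4 (0.0431 CPM) and Krt18 in mouse 4 (8.79 CPM). Several of these values rest on 0 to 2 counts. The number 8.5 holds for independent values with a normal spread. Neither the control couples nor such low counts are of that kind, so it is only a rough guide.

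For 30 of 85 named genes the effect of SB525334 differed with and without KN046 (interaction on the log2 scale, edgeR quasi-likelihood test, adjusted p under 0.05). Genes of hepatocytes and other liver cells were below 0, a deeper fall where KN046 was given. They were Hnf4a (−7.06), Alb (−5.84), Cps1 (−5.79), Cyp2e1 (−5.18), Bhmt (−4.90), Akr1d1 (−3.66), Clec4f (−5.94), Lrat (−4.89), Colec10 (−4.52), Pkhd1 (−5.80) and Bicc1 (−1.18), with the epithelial genes Cldn3 (−7.23), Krt8 (−5.63) and Krt18 (−5.11).

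Granulocyte genes were above 0, with Ngp at 12.06, Ltf at 11.97, Camp at 11.30, Fcnb at 10.53, Elane at 10.39, Ms4a3 at 10.23, Ly6g at 9.91 and Itgb2l at 7.42. Of the other genes, Cxcl13 was at 6.67, Gzmb at 3.70, Cxcl10 at 2.24, Cd274 at 2.12, Klrd1 at 2.05, Cd8a at 1.95, Psmb9 at 1.87 and Angpt2 at 1.41. For genes with 0 to 3 counts in a group the fitted size is not a bound. Each drug alone already left Ngp and Ltf near the lowest countable level, so for them a value above 0 was near certain in advance. SB525334 alone left Elane, Fcnb, Itgb2l, Ms4a3, Ly6g and Cxcl13 at 0 to 3 counts, so a deeper fall with KN046 could hardly have been counted. Nothing is concluded from the sign or size of the values of the granulocyte genes and Cxcl13.

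With each of the 16 libraries left out in turn, the call was lost at least once for Akr1d1 (11 of 16 fits), Bicc1 (10), Klrd1 (10), Angpt2 (7), Colec10 (4), Clec4f (3) and Itgb2l (1), and in no fit for the other 23 genes. Itgb2l lost it without combination mouse 4 (adjusted p = 0.0991). Without that mouse Ngp was at 8.38 and Cxcl13 at 4.23 (adjusted p = 0.0494).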

How the results depend on the processing

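The count of lower genes lay between 1001 and 1475 in all 21 alternatives, and that of higher genes was less stable. It was 55 as reported, 124 with library totals as the only scaling, 91 with a mean of at least 1 CPM required, 173 with the 8 mice alone, 125 with DESeq2, 18 with the study's thresholds (unadjusted p and 2-fold), 4 with each control couple merged, 201 with controls 1 and 2 only and 27 with controls 3 and 4 only. Leaving out 1 mouse at a time gave 22 (without control 1) to 58, and 23 without SB525334 mouse 1, 25 without control 2, 27 without SB525334 mouse 4 and 33 without SB525334 mouse 2. The other fits, with RLE scaling (64), TMM without liver genes (64), no filter (53) and newer dispersions (63), gave counts of higher genes within 1.5 times of 55. The use of only controls 1 and 2, only controls 3 and 4, and newer dispersions was added after seeing the data. Sinusoidal endothelium had 6 lower genes with controls 3 and 4 only. The general endothelial count of 11 became 7 with the 8 mice alone, 7 with couples merged, 1 with controls 3 and 4 only and 7 (without control 1 or 2) to 13 with 1 mouse left out. Interferon-γ response genes were 3 as reported, 8 with the 8 mice alone, 5 with controls 1 and 2 only and 1 without SB525334 mouse 3. The single lower TGF-β response gene became 0 with at least 1 CPM, with couples merged, with the study's thresholds, and with controls 1 and 2 or 3 and 4 only, 4 with the 8 mice alone, and 0 (without any 1 control or SB525334 mouse 1 or 2) to 3 (without SB525334 mouse 3) with 1 mouse left out. Hepatocyte calls stayed between 167 and 171. Of the log2 values near 0, Tgfbr1 changed sign to −0.0138 without control 4 (−0.0138 to 0.13 with 1 mouse left out) and −0.11 with controls 1 and 2 only, Tgfb1 to −0.00054 without SB525334 mouse 4 (up to 0.0672 with 1 mouse left out) and −0.0394 with controls 1 and 2 only, and Pmepa1 to −0.0272 with controls 3 and 4 only. The causes of these changes were not tested. With the replicate number as a block, 61 genes were higher and 1289 lower. The numbers did not pair the mice, and under the block each named gene kept its direction and 4 of them lost their call. The interaction called 598 genes, from 377 without combination mouse 4 to 944 without KN046 mouse 2. A stricter class of genes that follow liver tissue or the added drug (log2 −4) held 468 of the lower genes. A wider one (−2) held 662, against 542. Genes under about 1 CPM are limited by depth.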

Other observations

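Genes described here were looked at after their values had been seen. Of 10 tested genes encoded by the mitochondrial genome, 7 fell, with a median of −1.34 on the log2 scale, and their share of all counts was 1.54 to 1.77% in control and 0.757 to 1.14% in SB525334 mice. mt-Nd6, a subunit of respiratory complex I, had the largest fall, 1.86 ± 0.42 (adjusted p = 0.00493), and mt-Cytb fell by 1.34 ± 0.37 (adjusted p = 0.0254). mt-Co1, the gene with the most counts, fell by 0.70 ± 0.18 (adjusted p = 0.0183). The levels were very uneven, with control means of 10348 CPM for mt-Co1 but 15.1 for mt-Co2, 11.8 for mt-Co3 and 2.56 for mt-Atp6. The share of counts thus rests mainly on mt-Co1. The hepatocyte share was lower in the same mice, and its part in this was not tested.

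The ID genes, inhibitors of bHLH transcription factors that BMP signalling is known to induce, all had values below 0. They were not tested against each other. Id2 fell by 1.33 ± 0.24 (adjusted p = 0.000638) and Id3 by 1.37 ± 0.29 (adjusted p = 0.00346), whereas Id1 was at −0.37 ± 0.22 (adjusted p = 0.401) and Id4 at −0.35 ± 0.32 (adjusted p = 0.649). For Id2 the controls were at 34.0 to 43.1 CPM and the SB525334 mice at 11.3 to 19.0 CPM. For Id1, at 20.1 to 25.1 against 15.1 to 19.8 CPM, the groups did not overlap either. Id4 was weakly expressed, at 1.23 CPM on average in the controls. Epas1, the hypoxia-inducible factor of endothelium and other cells, fell by 1.74 ± 0.22 (adjusted p = 1.36e-05). Irf7, a regulator of type I interferon genes, fell by 1.32 ± 0.36 (adjusted p = 0.0245). Hepatocyte and endothelial genes fell in the same mice, and their part in the Id2, Id3 and Epas1 values was not tested. Prg2, an eosinophil granule protein, was at 3.98 and 3.93 CPM in controls 1 and 2, at 0.0507 and 0.627 CPM in controls 3 and 4 and at 0 to 0.0452 CPM in SB525334 mice.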
